A study of Mus musculus with 4 samples.

Results

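Integrins, selectins and their adhesion ligands were followed as a set of 39 genes in sorted mouse leukemia cells. The genes were listed by symbol and matched to the Ensembl identifiers of the count tables, where all 39 were found among 45232 listed genes. The set holds 18 integrin alpha subunit genes, 9 integrin beta subunit genes, the cell surface ligands Vcam1, Icam1, Icam2, Pecam1, Jam3 and F11r, the selectins Selp and Sele, their ligand Selplg, the hyaluronan receptor Cd44, and the integrin activators Fermt3 and Tln1.

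The cells were leukemic granulocyte-macrophage progenitors (L-GMPs) of MLL-AF9 leukemia, in which a fusion of the genes Mll and Af9 drives acute myeloid leukemia. They were taken from secondary recipient mice at death by sorting for c-Kit, CD34, CD16/32, Sca-1 and the reporters GFP and tdTom. Scr libraries came from 2 mice and miR-99 KD libraries from 2 others, and both groups carry MLL-AF9. Neither Scr nor KD is spelled out in the labels, which give no strain, age or time after transplantation. The sources used here do not state if 1 primary leukemia supplied every recipient, nor if separate leukemias did, so p-values measure the spread between these mice. The comparison addresses how lowering miR-99, a microRNA family, alters the transcriptome of these cells.

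Integrins are receptors made of 1 alpha and 1 beta subunit that tie a cell to extracellular matrix or to ligands on other cells. They switch between a resting and an active form, and talin (Tln1) and kindlin-3 (Fermt3) bind the tail of the beta subunit to bring the active form about. Selectins are lectins that bind sugars on ligands such as PSGL-1 (Selplg) and start the rolling of leukocytes on vessel walls. In marrow, integrin alpha 4 beta 1 on blood progenitors binds VCAM1, a bond known for keeping progenitors in place.

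The miR-99 family acts through its seed, bases 2 to 8, which pairs with sites in target transcripts. The mature sequences below are from RefSeq (GRCm38.p6), with the seed in capitals, and are shown because they define the sites searched for in the adhesion genes. All 3 share the seed.
miR-99a-5p: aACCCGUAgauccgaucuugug
miR-99b-5p: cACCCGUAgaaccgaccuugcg
miR-100-5p: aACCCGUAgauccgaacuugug
Of the 39 adhesion genes, each with a 3' untranslated region in GENCODE M21 (GRCm38), 1 held a match to bases 2 to 8, or to bases 2 to 7 followed by A. Among genes with enough counts to be tested, that was 3.03% of the 33 members, beside 2.35% of all 12368 with such a region. The gene was Sele, E-selectin of activated endothelium. Its match starts at base 520 of a 937-base region and lies within chr1:164057249-164057277 on the plus strand, where capitals mark the pairing with bases 2 to 8.
Sele site: aggagtgtcatTACGGGTacaaggtgcag
Sele was scarce in these cells. It had 48 and 51 counts in Scr against 60 and 41 in miR-99 KD. The groups overlapped, and the log2 fold change (miR-99 KD over Scr) was 0.00 ± 0.35 (SE). In no other adhesion gene did the longest annotated region hold these letters, and weaker pairing was not searched for. The precursor genes Mir99a, Mir99b and Mir100 had 0 counts in all 4 libraries, so the counts do not check the knockdown.

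Gene counts per library ran from 38458519 to 42674407. Levels are given as normalised CPM (CPM after scaling by edgeR's TMM factors), and 3 counts correspond to 0.0711 to 0.0739 of these units. Scr 1 had counts in 28573 genes against 21372 to 24038 in the other libraries. Across genes, log2 levels correlated at 0.968 between the Scr libraries and at 0.977 between the miR-99 KD libraries. Between the groups the value was 0.978 for Scr 2 and miR-99 KD 1 and 0.957 to 0.958 for the other pairs. Among genes of the sorting gate, Kit had 424 and 437 normalised CPM in Scr against 307 and 234 in miR-99 KD, and Cd34, Fcgr3 and Fcgr2b lay between 121 and 486. Ly6a, which encodes Sca-1, was near 0 with 4 to 8 counts in each library, although Sca-1 is named in the gate.

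No adhesion gene passed the test in the comparison of the groups. edgeR's quasi-likelihood test, adjusted over 15591 genes, called 0 genes in all (0%), as did limma-voom. Of the 39 members 33 had enough counts to be tested. At an unadjusted p under 0.05, 5 of the 33 were lower in miR-99 KD (Itga2, Itga9, Itgal, Itgax and Vcam1), where 5.23% of all genes tested were. The 2 with higher values, Itga1 and Itgb2l, stood beside 2.66% of all genes. Both miR-99 KD libraries lay under both Scr libraries in 11 members and above them in 5, where the shares over all genes were 25.3% and 18.9%. The median log2 fold change was −0.15 over the 33 members and −0.01 over all genes tested.

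Other fits called some of the same 7 genes. DESeq2 called Itga9, Itgax and Vcam1 lower (0.949% of all genes were) and Itga1 and Itgb2l higher (0.725%). Scr 1 decided part of this. Without it, when the lone Scr library is taken to vary as the miR-99 KD pair does, edgeR called Itga9, Itgax and Vcam1 lower (0.855% of all genes) and Itgb2l higher (0.993%).

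**Figure D1:**
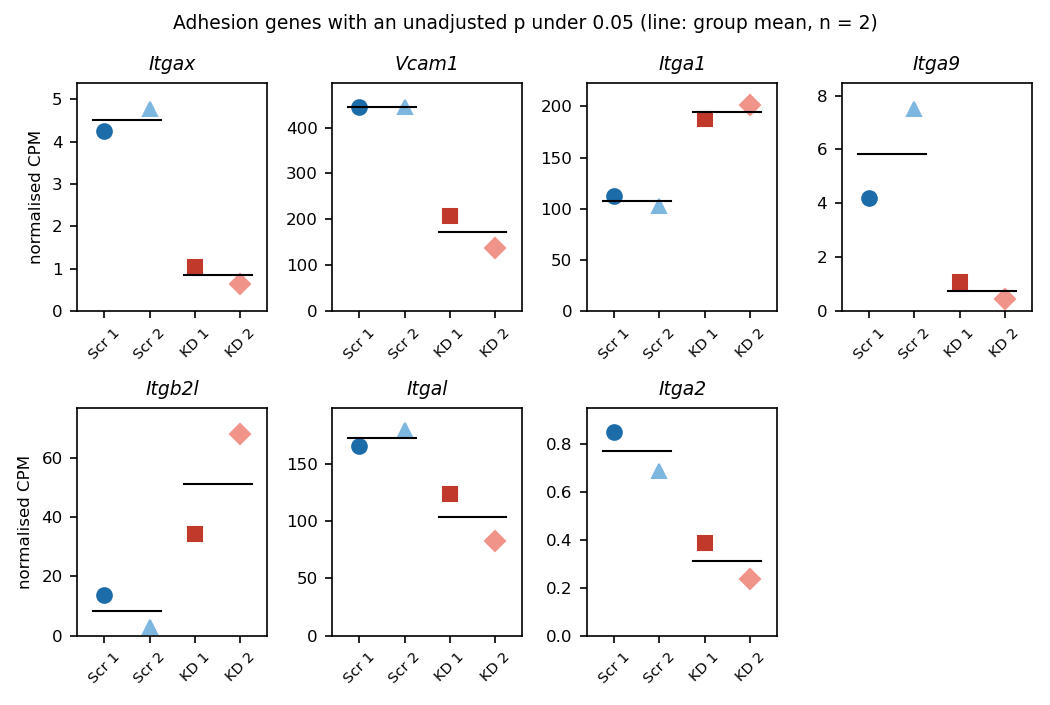
Normalised CPM of the 7 adhesion genes with an unadjusted edgeR p under 0.05, 1 panel per gene, with 1 point per library and a line at each group mean (n = 2). KD stands for miR-99 KD. Vcam1 sat near 445 in both Scr libraries and at 207 and 138 in miR-99 KD, and Itgb2l was higher in miR-99 KD with the widest spread between libraries of a group relative to its mean.

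Per kb of exon the set was led by genes of leukocyte adhesion. Itgb2, the beta 2 subunit of leukocyte integrins, averaged 166 normalised CPM per kb over the 4 libraries. Fermt3 averaged 120, Tln1 119, Selplg 87.9, Itgb1 78.3 and Itgam 67.6. With the longest coding transcript as the length, Fermt3 (269) and Selplg (202) came before Itgb2 (171) and Tln1 (139), and Vcam1 moved from the tenth place (34.8) to the fifth (89.0). At the other end, 6 members with 0 to 27 counts in a library were not tested. These were the alpha subunits Itga3, Itga7, Itga10 and Itga11, which pair with beta 1 mainly outside blood, and the beta subunits Itgb6 and Itgb8, known for binding latent TGF-beta together with alpha V. The 33 tested members spanned more than 3 decades per kb, as the plot of levels shows.

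**Figure D2:**
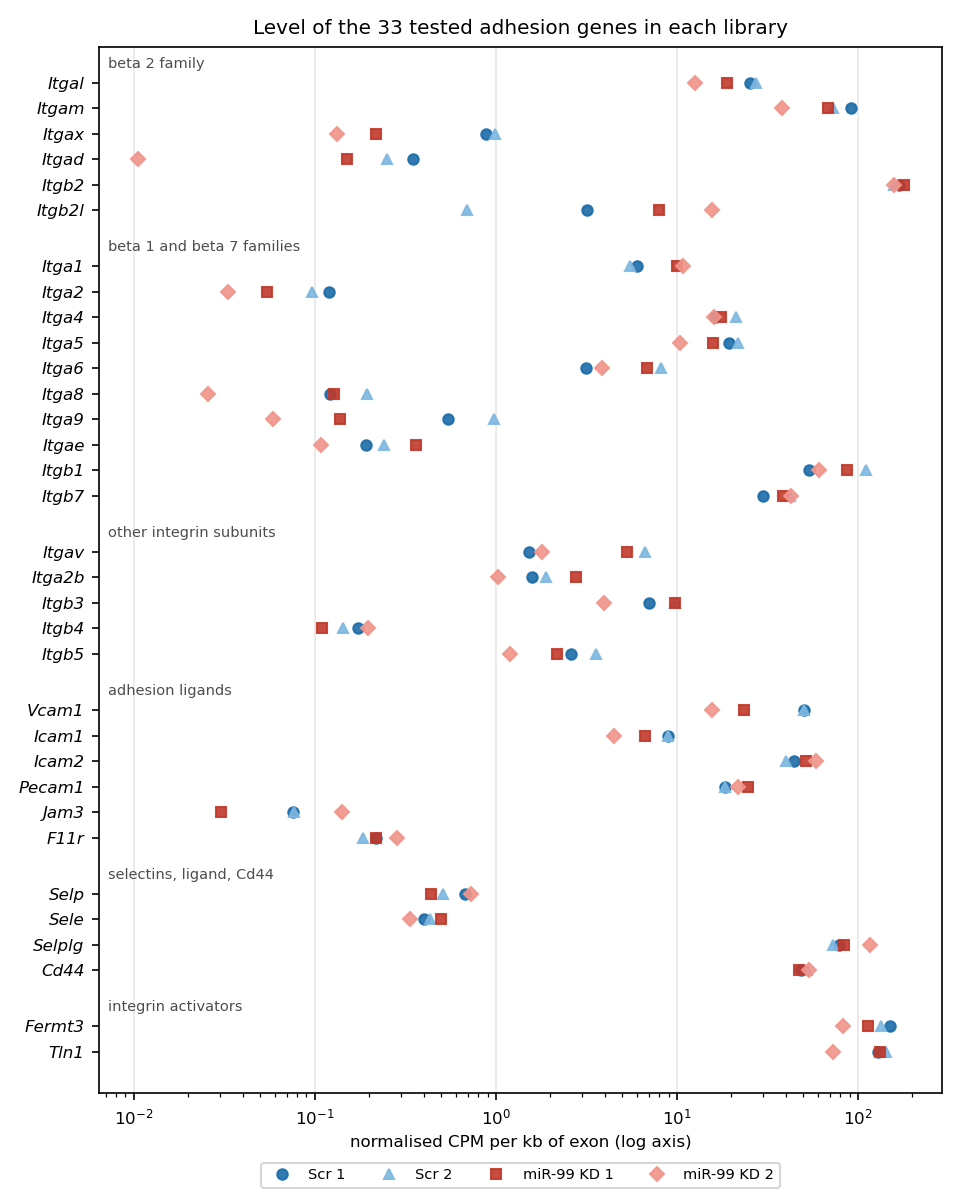
Level of the 33 tested adhesion genes in normalised CPM per kb of exon on a log axis, with 1 marker per library and genes grouped by role. Itgb2, Fermt3 and Tln1 averaged 119 to 166, whereas Itga2 averaged 0.0759, and Itgax, Itga9 and Vcam1 had both miR-99 KD markers left of both Scr markers.

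Within the beta 2 family the alpha subunits had lower values in miR-99 KD while those of the shared beta subunit overlapped. Itgal (alpha L), the LFA-1 subunit that binds ICAM-1, had 166 and 180 normalised CPM in Scr against 124 and 83.1 in miR-99 KD. Its groups did not overlap, and its log2 fold change was −0.74 ± 0.24 (SE; edgeR adjusted p 0.611). Itgam (alpha M), the CD11b chain of Mac-1, which binds complement fragment iC3b and fibrinogen, had 458 and 365 against 343 and 192. Its groups lay apart by less than the spread within each, and the log2 fold change was −0.62 ± 0.33 (adjusted p 0.690). Because the RNA is from bulk samples, fewer cells of a kind and less RNA per cell cannot be told apart here or below.

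Itgax (alpha X), the CD11c chain used as a mark of dendritic cells and some macrophages, had 4.25 and 4.78 normalised CPM in Scr against 1.04 and 0.640 in miR-99 KD. Each Scr library was over 4 and each miR-99 KD library near 1 or under it. The log2 fold change of −2.42 ± 0.36 had an edgeR adjusted p of 0.398, against 6.93e-05 in DESeq2 and 0.00224 in edgeR without Scr 1. The summed level of dendritic cell markers overlapped between the groups. It was 36.9 and 41.4 in Scr against 29.5 and 38.5 in miR-99 KD, Clec9a had 6, 0, 0 and 0 counts, Siglech 14, 0, 17 and 3, and 1 of the 8 tested markers was higher, with 0 lower, at an unadjusted p under 0.05. The resident macrophage markers, given with Vcam1, had lower summed levels in miR-99 KD. The 10 monocyte and macrophage markers summed to 2740 and 2657 in Scr against 3376 and 5292 in miR-99 KD, with 2 higher and 0 lower at an unadjusted edgeR p under 0.05. The part of such cells in the Itgax result was not tested.

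Itgad (alpha D), a further partner of beta 2, had 65 and 46 counts in Scr against 28 and 2 in miR-99 KD, with a log2 fold change of −1.90 ± 1.06 (adjusted p 0.696) that was −0.97 without miR-99 KD 2 and −4.69 without miR-99 KD 1.

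Itgb2 itself had 513 and 483 normalised CPM in Scr against 546 and 485 in miR-99 KD. The groups overlapped, with a log2 fold change of 0.05 ± 0.15 (95% interval −0.35 to 0.45). Per kb, the ratio of Itgam to Itgb2 was 0.543 and 0.459 in Scr against 0.382 and 0.241 in miR-99 KD, and that of Itgal to Itgb2 was 0.150 and 0.173 against 0.105 and 0.0796. Both ratios were thus lower in each miR-99 KD library than in each Scr library. The share of Itgam among the alpha chains overlapped between the groups, and that of Itgax did not. Itgam made up 77.5% and 71.7% of the summed level per kb of the 4 alpha genes in Scr against 78.1% and 75.0% in miR-99 KD, and Itgax 0.753% and 0.984% against 0.248% and 0.261%.

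Itgb2l, a mouse relative of beta 2 known from neutrophils, had values in the other direction. It had 13.7 and 3.01 normalised CPM in Scr against 34.3 and 67.9 in miR-99 KD. The groups did not overlap, yet libraries of 1 group differed by several fold in Scr. The log2 fold change was 2.61 ± 0.84 (edgeR adjusted p 0.605, DESeq2 adjusted p 0.0379), and without Scr 1 it was 4.17 (edgeR adjusted p 1.69e-11). It was 1.95 without Scr 2, 3.09 without miR-99 KD 1 and 2.07 without miR-99 KD 2 (edgeR adjusted p 0.282, 0.363 and 0.917). Markers of granulocyte maturation had a higher summed level alongside it. This was 5983 and 4446 in Scr against 11496 and 24711 in miR-99 KD. Elane was the largest part in each library (2644, 1838, 3887 and 6848). Mpo had 667 and 519 in Scr against 2387 and 4752 in miR-99 KD. Ngp had 412 and 151 against 1402 and 4859, and Camp 205 and 46.7 against 698 and 1849. Of the 14 markers 13 were above 0 in log2 fold change, with Cebpe at 0.01, and Ctsg was below. The groups overlapped for Cebpe, Mmp8 and Ctsg. At an unadjusted edgeR p under 0.05, 10 of the markers were higher and 0 lower. Ltf, of secondary granules, had 4.64, 1.87, 54.3 and 146 normalised CPM. Of the defining markers, the neutrophil surface gene Ly6g was under 1 in each library (0.389, 0.222, 0.653 and 0.948). Its miR-99 KD values lay above its Scr values (log2 fold change 1.38 ± 0.51, edgeR adjusted p 0.624). The part of maturing granulocytes in the Itgb2l result was not tested.

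Itgal, Itgam, Itgax and Itgad lie on chromosome 7, the last 3 side by side on the plus strand (Itgam 128062640 to 128118491, Itgax 128129547 to 128150657 and Itgad 128154376 to 128223816, GRCm38). Promoter windows from RefSeq (GRCm38.p6), 250 bases before to 50 after the start, are shown for the neighbours Itgam and Itgax, whose values were lower in miR-99 KD, and for Itgb2l, whose values were higher. Capitals mark GAGGAA on either strand, the core of sites bound by PU.1, a transcription factor of myeloid cells.
Itgam, chr7:128062390-128062689, plus strand: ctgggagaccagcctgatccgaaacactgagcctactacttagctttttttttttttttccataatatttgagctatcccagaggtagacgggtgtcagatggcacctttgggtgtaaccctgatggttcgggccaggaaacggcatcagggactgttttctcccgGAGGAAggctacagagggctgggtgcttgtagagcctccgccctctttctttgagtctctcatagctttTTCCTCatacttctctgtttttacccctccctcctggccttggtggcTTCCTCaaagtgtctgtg
Itgax, chr7:128129300-128129599, plus strand: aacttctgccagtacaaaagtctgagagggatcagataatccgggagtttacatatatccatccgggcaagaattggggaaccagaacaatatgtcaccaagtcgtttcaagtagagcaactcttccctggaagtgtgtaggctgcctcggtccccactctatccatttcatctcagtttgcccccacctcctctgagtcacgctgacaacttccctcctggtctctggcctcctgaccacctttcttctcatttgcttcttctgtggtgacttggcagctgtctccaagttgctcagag
Itgb2l, chr16:96443565-96443864, minus strand: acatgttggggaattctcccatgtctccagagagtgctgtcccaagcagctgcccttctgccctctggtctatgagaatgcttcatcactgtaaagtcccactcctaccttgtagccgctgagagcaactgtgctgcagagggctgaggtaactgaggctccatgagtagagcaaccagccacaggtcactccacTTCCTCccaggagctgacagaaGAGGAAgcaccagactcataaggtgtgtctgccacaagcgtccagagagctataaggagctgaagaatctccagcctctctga
GAGGAA occurred 3 times in the Itgam window, 2 times in that of Itgb2l and 0 times in that of Itgax. Over the 28 windows of the 26 members that matched the table, 14 held it (50%), against 28.3% of all 32851 windows. These are letter matches in a short window and no evidence of binding.

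Among the integrins that pair with beta 1 or beta 7, Itga1 was higher and Itga9 and Itga2 lower in miR-99 KD, while the chief partners on blood progenitors, Itga4, Itgb1 and Itgb7, overlapped between the groups. Itga1 (alpha 1), a collagen and laminin receptor subunit, had 112 and 102 normalised CPM in Scr against 187 and 201 in miR-99 KD. The gap between the groups was several times the spread within either. Its log2 fold change of 0.86 ± 0.15 had an edgeR adjusted p of 0.463 and a DESeq2 adjusted p of 0.0359, and it was 0.828 or more in each of 10 other fits. Itga9 (alpha 9), which binds tenascin, osteopontin and VCAM1, had 4.21 and 7.49 in Scr against 1.06 and 0.450 in miR-99 KD. The log2 fold change was −2.95 ± 0.58 (edgeR adjusted p 0.466, DESeq2 adjusted p 3.68e-04, edgeR without Scr 1 adjusted p 1.23e-06).

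Itga2 (alpha 2), the collagen receptor subunit of platelets, had 35 and 28 counts in Scr against 16 and 10 in miR-99 KD, a log2 fold change of −1.30 ± 0.47 (adjusted p 0.621 in edgeR and 0.840 in DESeq2). The 10 megakaryocyte and platelet markers summed to 8.05 and 4.34 normalised CPM in Scr against 2.93 and 4.22 in miR-99 KD, most of it Vwf and Gp9. Vwf, von Willebrand factor, had 189 and 119 counts in Scr against 62 and 78 in miR-99 KD and was the 1 of 3 tested markers lower at an unadjusted edgeR p under 0.05, while Gp9 had 106 and 42 against 43 and 56. The defining markers Pf4 and Ppbp had 0 to 4 counts in a library. Gp1bb, not tested, went the other way, with 0 and 2 counts in Scr against 9 and 21 in miR-99 KD. The part of such cells in the Itga2 values was not tested. Itga5 (alpha 5), the fibronectin receptor subunit, had 96.0 and 107 normalised CPM in Scr against 78.2 and 51.1 in miR-99 KD. Its groups did not overlap (log2 fold change −0.65 ± 0.26, adjusted p 0.647). Itga8 (alpha 8) had 37 and 58 counts in Scr against 39 and 8 in miR-99 KD. The groups overlapped, with a log2 fold change of −1.04 ± 0.81 (edgeR adjusted p 0.754). Without miR-99 KD 2 this fold change was −0.27 and without miR-99 KD 1 −2.54.

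Itga4 (alpha 4), the VCAM1 and fibronectin receptor subunit of VLA-4, had 228 and 297 normalised CPM in Scr against 246 and 223 in miR-99 KD. The groups overlapped (log2 fold change −0.16 ± 0.19, 95% interval −0.68 to 0.36). Itgb7 (beta 7), the partner of alpha 4 in gut homing, had 82.9 and 117 against 107 and 118, also with overlap (0.18 ± 0.23). Itgae (alpha E), which pairs with beta 7 to bind E-cadherin, had 21 to 69 counts in a library and a log2 fold change of 0.13 ± 0.65.

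Itgb1, Itgav, Itga6 and Itgb3 differed more between libraries of 1 group than between the groups. Itgb1 (beta 1), the partner of the largest number of alpha chains, had 220 and 453 normalised CPM in Scr against 356 and 249 in miR-99 KD. Itgav (alpha V), a subunit of vitronectin receptors, had 16.4 and 71.8 against 56.8 and 19.4. Itga6 (alpha 6), a laminin receptor subunit, had 28.5 and 73.9 against 61.5 and 34.6. In these 3 genes Scr 1 and miR-99 KD 2 were low and Scr 2 and miR-99 KD 1 high, so each group held 1 library of either kind. Log2 fold changes were −0.15 ± 0.41, −0.21 ± 0.87 and −0.09 ± 0.56 (adjusted p 0.920, 0.949 and 0.966). Leaving out Scr 2 turned each to a positive value (0.51, 1.26 and 0.80). Itgb3 (beta 3), which pairs with alpha V and alpha IIb, had 41.3 and 58.0 against 57.4 and 23.3, so that 1 library of miR-99 KD stood below the other 3 (−0.30 ± 0.49, adjusted p 0.869).

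**Figure D3:**
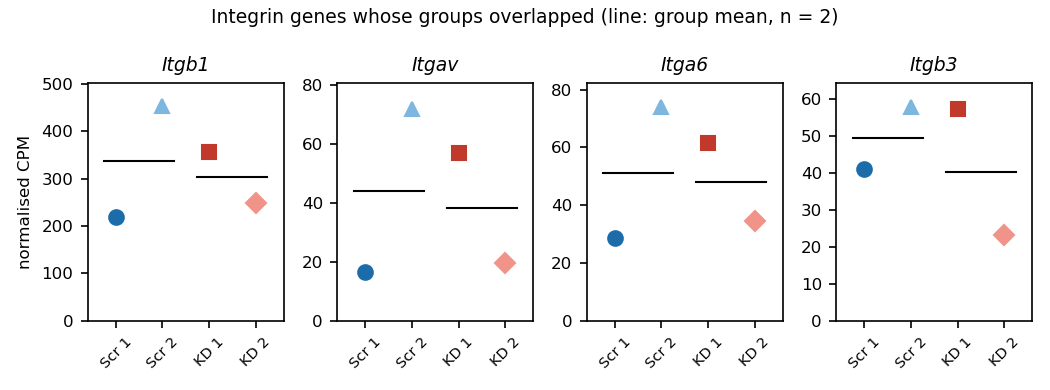
Normalised CPM of Itgb1, Itgav, Itga6 and Itgb3 by library, with a line at each group mean (n = 2). For Itgb1, Itgav and Itga6 the points of Scr 1 and miR-99 KD 2 lie below those of Scr 2 and miR-99 KD 1, and the group means nearly coincide.

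The remaining tested integrin subunits were scarcer. Itgb5 (beta 5), a partner of alpha V, had 9.24 and 12.6 normalised CPM in Scr against 7.69 and 4.24 in miR-99 KD, without overlap (log2 fold change −0.87 ± 0.39, adjusted p 0.659). Itga2b (alpha IIb), the fibrinogen receptor subunit of platelets, had 8.61 and 10.3 against 15.2 and 5.62, so miR-99 KD held both the highest and the lowest library (0.14 ± 0.52). Itgb4 (beta 4), the partner of alpha 6 in hemidesmosomes, had 32 to 58 counts in a library (−0.05 ± 0.42).

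**Figure D4:**
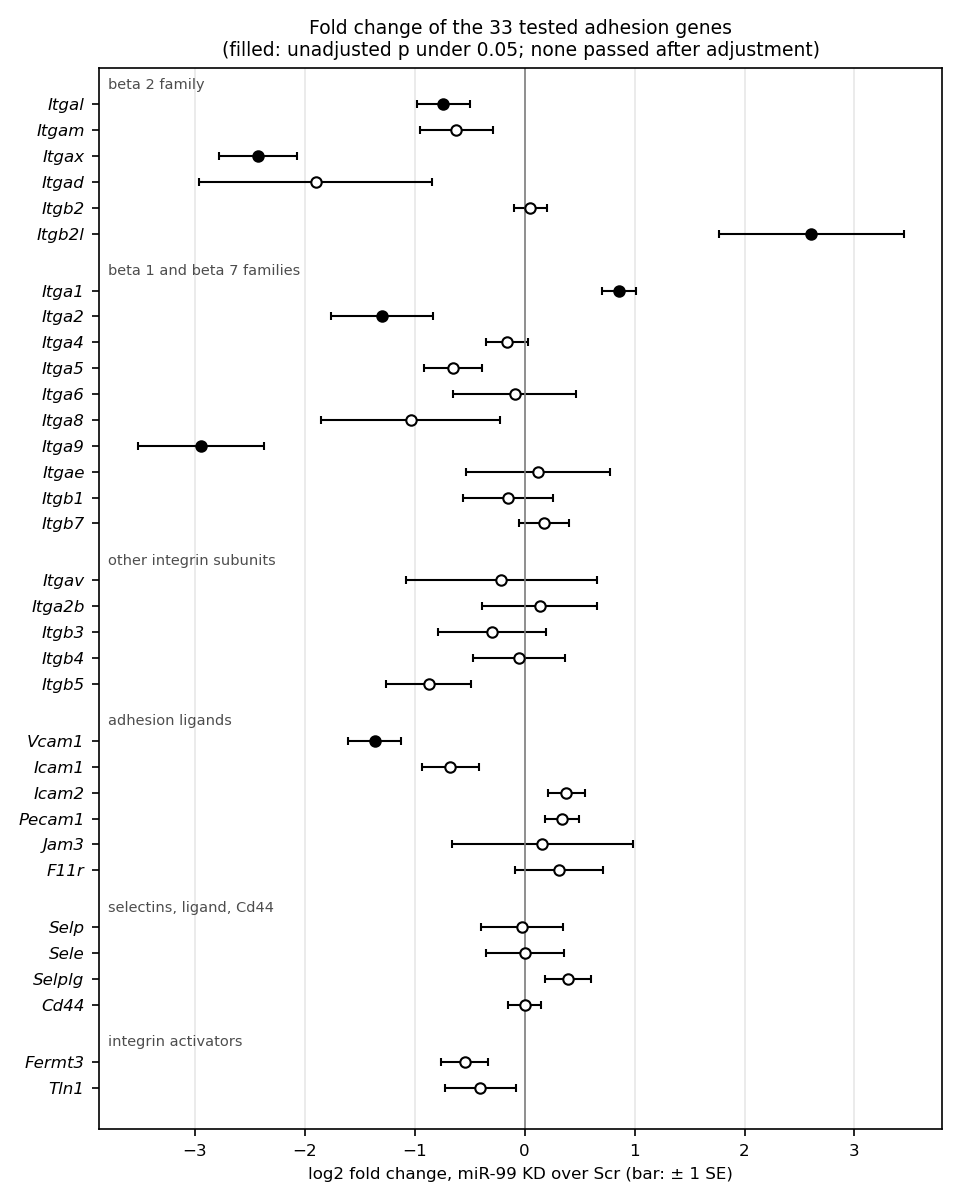
Log2 fold change of miR-99 KD over Scr with 1 SE for the 33 tested adhesion genes, grouped by role, from edgeR. Filled points mark an unadjusted p under 0.05, and no gene passed after adjustment over 15591 genes. Vcam1 (−1.36) and Itgax (−2.42) lie left of 0 by several SE and Itga1 (0.86) right of it, while Itgb2, Itga4 and Cd44 lie near 0.

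Of the ligands, Vcam1 and Icam1 had lower values in miR-99 KD and Icam2 and Pecam1 somewhat higher ones. Vcam1, the immunoglobulin-family ligand of alpha 4 and alpha 9 integrins, had 445 and 444 normalised CPM in Scr against 207 and 138 in miR-99 KD. The Scr libraries were almost equal, and the Scr mean was 2.57 times that of miR-99 KD. The log2 fold change of −1.36 ± 0.24 (95% interval −2.01 to −0.72) had an edgeR adjusted p of 0.463, a DESeq2 adjusted p of 0.00480 and an edgeR adjusted p of 0.0314 without Scr 1. It stayed between −1.63 and −1.07 over 10 other fits. Set against its receptor subunit per kb of exon, Vcam1 was 3.08 and 2.36 times Itga4 in Scr. It was 1.33 times Itga4 in miR-99 KD 1 and 0.976 times Itga4 in miR-99 KD 2. The size of these ratios depends on the length used. Over the 4 libraries, Vcam1 and Itga4 averaged 34.8 and 17.8 per kb of exon. With the longest coding transcript as the length, they averaged 89.0 and 25.4.

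Marker lists of other cells that carry VCAM1 also had lower summed levels in miR-99 KD. The 10 markers of resident marrow macrophages summed to 45.3 and 40.8 normalised CPM in Scr against 26.4 and 21.3 in miR-99 KD, of which Hmox1, a heme-degrading enzyme not limited to macrophages, made up 27.6, 25.3, 16.0 and 10.2. C1qa had 1.85, 1.38, 1.14 and 1.21, and Timd4 had 1 to 3 counts. Of the 9 tested, each had a negative log2 fold change, 8 had both miR-99 KD libraries under both Scr libraries, and 1 was lower at an unadjusted p under 0.05. The 13 markers of stroma and endothelium summed to 143 and 160 against 104 and 25.5, most of it Pdgfrb (125, 146, 91.5 and 20.1). Of the 7 tested, each had a negative log2 fold change, and 1 was lower at an unadjusted edgeR p under 0.05. The groups overlapped in all but 2, Pdgfrb and Sparc. Stromal Cxcl12 had 124 and 23 counts in Scr against 45 and 55 in miR-99 KD. Its log2 fold change was −0.58, and 1.15 without Scr 1. Endothelial Cdh5 had 2, 1, 0 and 0 counts. Vcam1 alone exceeded the summed level of either list in each library. These levels are not scaled by gene length and do not show which cells carried the Vcam1 RNA. The part of such cells in the Vcam1 result was not tested.

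Icam1, a ligand of LFA-1 and Mac-1, had 38.7 and 39.0 normalised CPM in Scr against 28.9 and 19.6 in miR-99 KD. As for Vcam1, the Scr libraries were nearly equal and both miR-99 KD libraries were lower (log2 fold change −0.68 ± 0.26, adjusted p 0.634). Icam2, a ligand of LFA-1, had 84.7 and 76.6 against 98.6 and 111 (0.38 ± 0.17, adjusted p 0.659). Pecam1 (CD31), a homophilic receptor of leukocytes, platelets and endothelium, had 115 and 115 against 154 and 136 (0.34 ± 0.16, adjusted p 0.661). For both genes the miR-99 KD libraries were above the Scr libraries. The junctional molecules Jam3 and F11r had 4 to 32 counts in a library and overlapped between the groups.

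Selectins were scarce, and the selectin ligand and Cd44 abundant. Selp, the P-selectin of platelets and endothelium, had 80 to 136 counts in a library (log2 fold change −0.02 ± 0.37), at a level near that of Sele per kb (0.589 and 0.416 normalised CPM per kb on average). Selplg, which encodes PSGL-1, the ligand of P-selectin, had 336 and 313 normalised CPM in Scr against 357 and 495 in miR-99 KD. The groups did not overlap, but the gap came mostly from miR-99 KD 2 (0.39 ± 0.21, adjusted p 0.691). Cd44 had 329 and 354 against 320 and 363 and a log2 fold change of 0.00 ± 0.15 (95% interval −0.41 to 0.41).

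The integrin activators were abundant and had lower mean values in miR-99 KD. Fermt3 had 871 and 779 normalised CPM in Scr against 654 and 477 in miR-99 KD. The groups did not overlap (log2 fold change −0.55 ± 0.21, adjusted p 0.634). Tln1 had 1273 and 1392 against 1300 and 715, so miR-99 KD 1 lay within the Scr range and miR-99 KD 2 alone was low (−0.40 ± 0.32, adjusted p 0.754). Without miR-99 KD 2 the log2 fold change of Tln1 was 0.00.

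Other genes of the adhesion pathway were taken from 5 lists of 106 genes, of which 79 were tested. edgeR and limma-voom called 0 of them, DESeq2 called Alcam higher and Vcan lower, and edgeR without Scr 1 called Vcan, Adam8 and Tns1 lower. At an unadjusted p under 0.05, 9 were lower and 1 higher in miR-99 KD, 11.4% and 1.27% of those tested, beside 5.23% and 2.66% over all genes. Their median log2 fold change was −0.07. Among the 30 tested genes of integrin activation and the adhesome 4 were lower, with the smallest p for Skap2, an adaptor of beta 2 integrin activation (452 and 556 against 305 and 323 normalised CPM, −0.68 ± 0.17, adjusted p 0.549), and the talin gene Tln2 (141 and 129 against 90.6 and 65.8, −0.79 ± 0.22, adjusted p 0.580). Of the 10 tested myeloid signalling kinases and exchange factors 0 had an unadjusted p under 0.05 (edgeR).

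Of 16 tested matrix ligand genes and matrix-cleaving relatives 4 were lower at an unadjusted p under 0.05. The proteoglycan gene Vcan had 10.2 and 8.67 normalised CPM in Scr against 2.49 and 2.01 in miR-99 KD (−2.07 ± 0.27, edgeR adjusted p 0.356, DESeq2 adjusted p 5.26e-06). The metalloprotease gene Adam8 had 31.6 and 42.3 against 18.5 and 9.74 (−1.39 ± 0.39, adjusted p 0.580). Among 11 other adhesion and junction genes Alcam (CD166), a homophilic receptor of the immunoglobulin family, was the 1 higher at an unadjusted p under 0.05, with 3.99 and 4.26 against 10.2 and 9.65 (1.26 ± 0.23, edgeR adjusted p 0.465, DESeq2 adjusted p 0.00221). Of 12 tested genes of the selectin and selectin ligand synthesis list 1 was lower at that p, the sialyltransferase gene St3gal6, from 41 and 17 counts to 4 and 8 (adjusted p 0.589).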

How the data were processed

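RNA sequencing gave gene counts for 4 libraries, 2 of Scr and 2 of miR-99 KD, 1 mouse each. Per the labels' protocols, RNA was extracted with Trizol LS and amplified with SMARTer chemistry. The deposited values are raw counts per Ensembl gene, as their whole numbers show. Per the submitters' processing notes, the authors used STAR, Picard, HTSeq and DESeq2 with mm9. The sources used here give no versions, annotation or strand setting. The files also hold 5 categories that name no gene (43.7% to 49.7% of entries), which stayed out of library sizes and tests. Alignments that were not unique are among them, so genes with close copies are under-counted. Exons of 11 members overlap another listed gene, such as Itga4 with Cerkl and Tln1 with Creb3, and cannot be told apart there without strand.

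Symbols, lengths, positions and 3' regions come from GENCODE M21 on GRCm38 by identifier, with none converted from mm9. The comparison used edgeR 4.0.16 in R 4.3.3 with a two-sided quasi-likelihood test, TMM factors (0.969 to 1.07), the default expression filter (minimum count 10) and Benjamini-Hochberg adjustment over 15591 genes at a threshold of 0.05. The SE is the fold change over the root of the F statistic. Alternatives were DESeq2 1.42.0, limma-voom 3.58.1, other factors and filters, leaving out each library, and the replicate number as a block. Libraries of a group differed by far more than counting noise. The fit was also run on simulated counts, drawn with less spread between libraries than these data had. That run does not show what the fit can detect here.

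The members and lists were chosen with earlier results of these data known. Values in every library are given for members with an unadjusted p under 0.05, with a group mean of at least 20 normalised CPM, or with at least 1 in a group mean and a difference of at least 2-fold. From each pathway list the 2 genes with the smallest p under 0.05 in each direction are named. Cd34, the gate genes and the markers beside a result were named in addition. Reads carry no molecular identifiers, so counting limits cover counting error only.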

Additional observations from a re-analysis of the deposited data

How the results depend on the processing

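No member was called in the main analysis, nor with upper-quartile factors, limma-voom, no filter on low counts, a minimum count of 50, the replicate block, or without Scr 2, miR-99 KD 1 or miR-99 KD 2. DESeq2 called 5 members, 2 of the other pathway genes and 261 genes in all, where the main analysis called 0. edgeR called 23 genes in all with upper-quartile factors and 9 with no filter. Leaving out 1 library gave 0 to 294 genes in all, 0 to 4 members and 0 to 3 other pathway genes, with each upper value from the fit without Scr 1. The median of the members ran from −0.73 (without miR-99 KD 1) to 0.011 (without Scr 2).

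Of 324 recomputed member values 278 kept their sign and side of the threshold, 9 passed it and 37 changed sign, the last in 12 of the 33 members. Itga2b was −0.029 with limma-voom and −0.025 with the replicate block, Itga6 0.0084 and 0.0078, Itgae −0.11 and −0.082, and Jam3 −0.19 and −0.11. Without a filter Itgb4 was 0.0092, Selp 0.040, Sele 0.054 and Cd44 0.056, and with DESeq2 Selp was 0.020, Sele 0.034 and Cd44 0.041. With 1 library left out, values ran from −0.69 to 0.72 (Itga2b), −0.27 to 0.093 (Itga4), −0.56 to 0.80 (Itga6), −0.93 to 0.78 (Itgae), −1.13 to 1.26 (Itgav), −0.52 to 0.51 (Itgb1), −1.03 to 0.24 (Itgb3), −0.49 to 0.36 (Itgb4), −0.40 to 0.36 (Selp), −0.26 to 0.29 (Sele), −0.060 to 0.15 (Cd44) and −1.28 to 0.93 (Jam3). The cause was not tested.

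Scr and miR-99 KD libraries share only a number in their labels. Deviations from the group means of same-numbered libraries correlated at −0.43 across genes, and the replicate block called 0 genes. In a crossed replicate block, chosen after seeing the data, 28 genes and 0 members were called. With 2 mice a group, a member that misses the threshold is not shown to be unchanged.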
